A study of Homo sapiens with 4 samples.

Results

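The transcripts of 10 surface marker genes were examined in human embryonic stem cells (hESCs) held in the naïve or the primed state: THY1, CD24, SUSD2, CD7, ST6GAL1, A4GALT, B3GAT1, PODXL, CD9 and PROM1. They were chosen as genes that encode, or build the glycans of, antigens used to tell naïve from primed hESCs, and they are 10 of the 62218 genes with a matched transcript, of which 27632 were tested. The libraries were 4 Nanopore cDNA libraries made from total RNA of the H1 line, a wild-type hESC line, with 2 replicates per state. Primed hESCs were grown in mTeSR on Matrigel in normal oxygen. Naïve hESCs were derived from these primed cells, grown on Matrigel with reduced growth factors in the FINE medium, and kept in low oxygen. The FINE medium holds several kinase inhibitors with LIF, Activin A and bFGF. The labels name a different confluency for each state. Both states thus come from 1 line, and the medium, the Matrigel, the oxygen level and the stated confluency changed together with the state. For each gene the count is the number of alignments over the span of its transcript with the largest mean count. Levels are given as CPM (counts scaled to library depth), normalized by the TMM method of edgeR.

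Naïve hESCs stand close to the epiblast of the embryo before implantation, and primed hESCs close to the epiblast after it. The states can be sorted alive because antibodies read proteins and sugars on the outer membrane. Some of these antigens are proteins, such as CD90 (THY1), CD24, SUSD2, CD7, CD9 and prominin (PROM1). Others are glycans, so that the gene measured is the enzyme that builds them. A4GALT makes the globotriaosylceramide called CD77, ST6GAL1 adds the sialic acid of the epitope called CD75, and B3GAT1 adds the glucuronic acid of the HNK-1 epitope called CD57. Podocalyxin (PODXL) carries the keratan sulfate-like epitopes known as TRA-1-60 and TRA-1-81. RNA counts do not measure these antigens on the membrane.

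Promoter sequence is shown for the 3 glycosyltransferase genes. A4GALT is shown because its isoform called for usage begins at this promoter, B3GAT1 because a divergent gene starts inside the window, and ST6GAL1 because it is the member that was not called. The RefSeq promoter table (GRCh38.p14) held windows for 6 of the 10 members, and for THY1, SUSD2, CD7 and PODXL no sequence is shown. The 250 bases upstream of the canonical start were A4GALT at chr22:42720871-42721120 on the minus strand, B3GAT1 at chr11:134412243-134412492 on the minus strand and ST6GAL1 at chr3:186930276-186930525 on the plus strand. Capitals mark matches on either strand to GGGNGGGG, a pattern bound by SP and KLF zinc fingers, and to GCCNNNGGC, a pattern bound by AP-2 factors, and neighbouring matches may overlap.
A4GALT: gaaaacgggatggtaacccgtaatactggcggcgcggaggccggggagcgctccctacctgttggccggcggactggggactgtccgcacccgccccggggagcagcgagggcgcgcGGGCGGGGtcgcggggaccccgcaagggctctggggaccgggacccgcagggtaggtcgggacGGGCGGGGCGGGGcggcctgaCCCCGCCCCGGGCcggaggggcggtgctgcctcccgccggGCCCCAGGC
B3GAT1: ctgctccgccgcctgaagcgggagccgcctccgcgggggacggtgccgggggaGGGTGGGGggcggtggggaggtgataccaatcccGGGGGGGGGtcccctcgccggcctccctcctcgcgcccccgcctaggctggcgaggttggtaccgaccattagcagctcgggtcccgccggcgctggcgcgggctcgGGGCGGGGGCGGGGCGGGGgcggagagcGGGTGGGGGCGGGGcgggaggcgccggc
ST6GAL1: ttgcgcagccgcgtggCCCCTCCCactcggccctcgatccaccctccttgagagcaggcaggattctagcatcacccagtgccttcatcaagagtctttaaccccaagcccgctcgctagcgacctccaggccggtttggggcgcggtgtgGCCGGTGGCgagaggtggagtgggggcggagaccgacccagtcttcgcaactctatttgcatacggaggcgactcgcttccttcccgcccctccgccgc

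All 3 windows were rich in CpG, with 33 CpG in A4GALT, 33 in B3GAT1 and 22 in ST6GAL1, against a median of 11 over the 35116 windows of the table. The GGGNGGGG pattern matched 4 times in A4GALT, 8 times in B3GAT1 and 1 time in ST6GAL1, and 36.0% of all windows held at least 1 match. GCCNNNGGC matched 2 times in A4GALT, 1 time in ST6GAL1 and not in B3GAT1, and 19.8% of all windows held a match. TATAAA, the core of the TATA box, matched in none of these 3 windows and in 10.7% of all windows. A match is a description of the letters, not a bound site.

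The totals of the libraries over all transcripts lay between 129276054 and 161548901 counts. CPM was scaled to gene-level counts, with the smallest normalized depth in naïve replicate 1, 23086289. There 0 counts allow up to 3 counts, or at most 0.130 TMM-normalized CPM at the gene level. The labels do not say that replicates were separate cultures. Of 27632 genes tested by edgeR's quasi-likelihood test, 19334 differed between the states at an adjusted p under 0.05, 10327 higher and 9007 lower in primed hESCs. Under TMM the log2 fold change had a median of 0.08 over all genes. Scaled to library size the median was 0.72, a shift of 0.64, and the calls were 15524 higher and 4511 lower. Scaled to the total deposited counts they were 14953 higher and 4903 lower. By the markers chosen to check the labels, 7 of 7 naïve markers were lower and 5 of 5 primed markers higher in primed hESCs under TMM, but the naïve marker KLF17, with 2200 and 2423 against 2083 and 2236 counts, turned to a log2 fold change of 0.23 with library size. DNMT3L had 4540 and 3798 counts in naïve hESCs against 4 and 2 in primed hESCs. The primed marker ZIC2 had 1 and 3 against 214 and 283.

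Of the 10 members, 5 were higher in primed hESCs, 4 were lower and 1, ST6GAL1, did not pass the test. Over all genes tested 70.0% differed, 37.4% higher and 32.6% lower, so that a count of 9 of 10 has to be read against a background in which most genes differed. THY1 and B3GAT1, 2 of these 9, reached 10 counts in primed libraries only, and could be tested only because they were high there. In no member did the CPM of the naïve libraries overlap that of the primed libraries, which held for 84.4% of all genes tested. The largest rise was that of THY1, without a count in naïve hESCs, and the largest fall was that of SUSD2, 70.6-fold lower in primed hESCs. The median log2 fold change was 1.08 over the members, against 0.08 over all genes. In bulk RNA, fewer cells that express a gene and less RNA of it per cell cannot be told apart.

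**Figure D1:**
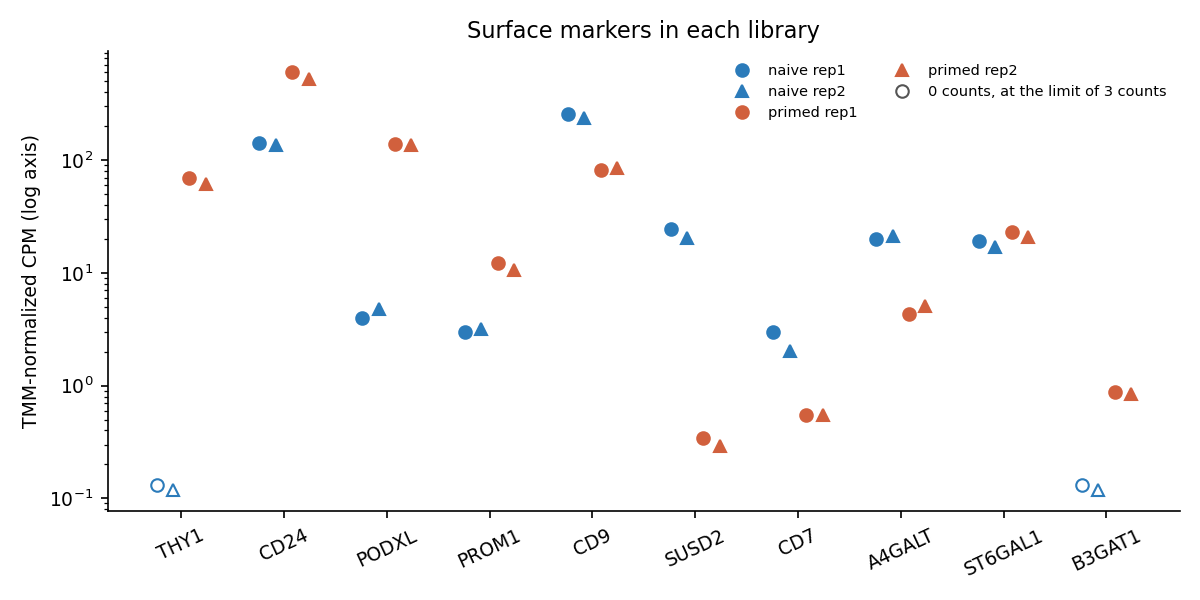
TMM-normalized CPM of each surface marker in each library, on a log axis, with circles for replicate 1 and triangles for replicate 2. THY1 and B3GAT1 had 0 counts in both naïve libraries and are drawn there as open symbols at the limit of 3 counts, while the 4 points of ST6GAL1 lie between 17.1 and 22.8 CPM.

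THY1 encodes a glycoprotein held in the membrane by a GPI anchor. Its transcript THY1-201 lies on chromosome 11 from 119415476 to 119423172 on the minus strand. It had 0 counts in both naïve libraries and 2039 and 1888 counts in the primed libraries. The primed level was 65.4 ± 5.43 CPM (SD, n = 2), at least 503-fold higher than the limit of 3 counts in the shallower naïve library after normalization. THY1 had an adjusted p of 1.03e-28 by edgeR, in a test that it entered only through its primed counts. All 10 annotated THY1 isoforms were without a count in naïve hESCs. Genes on the plus strand share this region. THY1-AS1 (chromosome 11, 119417951 to 119419114) had 0 and 0 against 1883 and 1730 counts. USP2-AS1, whose span encloses THY1, had 25 and 21 against 2116 and 1992. Strand was ignored in the counting, so that THY1 and these antisense genes cannot be told apart where they overlap. The isoform THY1-208, from 119420409 to 119423201, lies outside THY1-AS1 but inside USP2-AS1. Its span held 1720 and 1451 primed counts, which cannot be assigned to THY1 alone.

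CD24 is a small, heavily glycosylated protein that is likewise GPI-anchored. CD24-201 lies on chromosome 6 from 106969831 to 106974729 on the minus strand. Its counts were 3300 and 3501 in naïve and 17933 and 16140 in primed hESCs. Thus CD24 was present in both states and 4.05-fold higher in primed hESCs, 567 ± 58.5 against 140.0 ± 4.12 CPM (SD, n = 2), with a log2 fold change of 2.02 ± 0.145 (SE) and an adjusted p of 3.47e-16 by edgeR. CD24 has near-identical copies elsewhere in the genome, and reads with several alignments were counted at each. The count on the copy CD24P4 came to 87.6% of the CD24 count in naïve and 84.2% in primed hESCs, so that the source of these reads cannot be told apart.

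PODXL encodes podocalyxin, a sialomucin of the CD34 family. PODXL-202 lies on chromosome 7 from 131500271 to 131556628 on the minus strand. Its counts were 92 and 122 in naïve hESCs and 4096 and 4212 in primed hESCs. The change was 31.5-fold, from 4.38 ± 0.561 to 138 ± 1.25 CPM (SD, n = 2), with a log2 fold change of 4.97 ± 0.179 (SE) and an adjusted p of 8.99e-27 by edgeR. The pseudogene RPL31P36 inside its span had 2 and 3 naïve and 59 and 53 primed counts, a small part of the PODXL counts.

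PROM1 encodes prominin, a protein of membrane protrusions known as CD133. PROM1-201 lies on chromosome 4 from 15968228 to 16084023 on the minus strand. Its counts were 69 and 81 in naïve and 361 and 327 in primed hESCs, 3.08 ± 0.130 against 11.5 ± 1.13 CPM (SD, n = 2). It was 3.72-fold higher in primed hESCs, with a log2 fold change of 1.89 ± 0.198 (SE) and an adjusted p of 2.72e-11 by edgeR. FGFBP2-202 overlaps the last bases of PROM1-201 and had 33 and 24 against 216 and 129 counts. The isoform PROM1-208, at the other end of the gene (16075734 to 16083465), lies outside FGFBP2-202 and had 51 and 43 against 196 and 107 counts.

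CD9 is a tetraspanin, a protein that crosses the membrane several times and gathers integrins and other partners. CD9-203 lies on chromosome 12 from 6199715 to 6238271 on the plus strand. Its counts were 5869 and 6029 in naïve and 2391 and 2604 in primed hESCs. CD9 was 2.95-fold lower in primed hESCs, 83.0 ± 2.61 against 245 ± 12.8 CPM (SD, n = 2), with a log2 fold change of -1.56 ± 0.143 (SE) and an adjusted p of 6.18e-13 by edgeR. CD9 thus stayed among the most abundant members in both states. A Y RNA gene inside its span had between 4 and 25 counts per library.

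SUSD2 encodes a membrane protein with a Sushi domain, used as a naïve marker for live sorting. SUSD2-201 lies on chromosome 22 from 24181487 to 24189106 on the plus strand, and no other annotated gene overlaps it. Its counts were 562 and 519 in naïve and 10 and 9 in primed hESCs. SUSD2 was 70.6-fold lower in primed hESCs, 0.316 ± 0.0326 against 22.3 ± 2.84 CPM (SD, n = 2), with a log2 fold change of -6.12 ± 0.259 (SE) and an adjusted p of 2.98e-24 by edgeR. It was the member that fell the most, and the primed counts stayed above the limit of 3 counts.

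CD7 encodes a transmembrane protein of the immunoglobulin superfamily best known from T cells. CD7-201 lies on chromosome 17 from 82314873 to 82317608 on the minus strand, with no overlapping gene. Its counts were 69 and 52 in naïve and 16 and 17 in primed hESCs, 2.51 ± 0.673 against 0.549 ± 0.00770 CPM (SD, n = 2). The 4.58-fold lower level in primed hESCs had a log2 fold change of -2.18 ± 0.334 (SE) and an adjusted p of 2.27e-07 by edgeR. The 2 lymphoid markers that could be tested went the other way. LCK, a kinase of T cells, had 66 and 66 against 327 and 271 counts and SPN, the sialophorin of leukocytes, had 8 and 7 against 96 and 83, both higher in primed hESCs. CD3E had 0 counts in 3 of the 4 libraries and 2 in the other one, and PTPRC had 0 and 0 against 1 and 1.

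A4GALT is the galactosyltransferase that ends globotriaosylceramide. A4GALT-206 lies on chromosome 22 from 42692121 to 42720870 on the minus strand. Its counts were 457 and 543 in naïve and 127 and 155 in primed hESCs. A4GALT was 4.39-fold lower in primed hESCs, 4.68 ± 0.523 against 20.5 ± 1.04 CPM (SD, n = 2), with a log2 fold change of -2.13 ± 0.175 (SE) and an adjusted p of 2.20e-14 by edgeR. CYB5R3-211 starts at the same base and spans all of A4GALT, and had 858 and 948 against 750 and 664 counts over its longer span. An alignment inside A4GALT counts for both.

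ST6GAL1 is a sialyltransferase that adds α2,6-linked sialic acid to galactose. ST6GAL1-201 lies on chromosome 3 from 186930526 to 187078553 on the plus strand, with no overlapping gene. Its counts were 440 and 437 in naïve and 673 and 643 in primed hESCs. The levels were 18.1 ± 1.37 and 21.9 ± 1.34 CPM (SD, n = 2), a ratio of 1.21, and the log2 fold change was 0.28 ± 0.155 (SE; 95% interval -0.036 to 0.588) with an adjusted p of 0.108 by edgeR. At this interval a fall in primed hESCs of the size seen for CD9 or A4GALT lies outside, whereas a rise of up to 0.588 lies inside. The call depended on the scaling. With library size the log2 fold change was 0.92 (adjusted p = 1.52e-05 by edgeR), and with total deposited counts it was 0.85 (adjusted p = 2.59e-05). It was also called at 0.38 with a stricter filter of 50 counts (adjusted p = 0.0268) and at 0.50 without primed replicate 2 (adjusted p = 0.0207), a fit with 1 primed library that was assumed to vary like the naïve ones. In each of these it was higher in primed hESCs, although its epitope CD75 is used as a naïve marker.

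B3GAT1 is the glucuronyltransferase of the HNK-1 epitope. B3GAT1-201 lies on chromosome 11 from 134378508 to 134412242 on the minus strand, with no overlapping gene. It had 0 counts in both naïve libraries and 26 counts in each primed library. The primed level was 0.865 ± 0.0249 CPM (SD, n = 2), at least 6.66-fold higher than the limit of 3 counts in the shallower naïve library. B3GAT1 had an adjusted p of 2.62e-08 by edgeR, in a test that it entered only through its primed counts. The divergent gene B3GAT1-DT, whose first start lies 42 bases from that of B3GAT1 inside the promoter window printed above, had 1 and 2 naïve and 43 and 38 primed counts. Its adjusted p was 1.01e-08 by edgeR, and it likewise entered the test only through its primed counts.

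**Figure D2:**
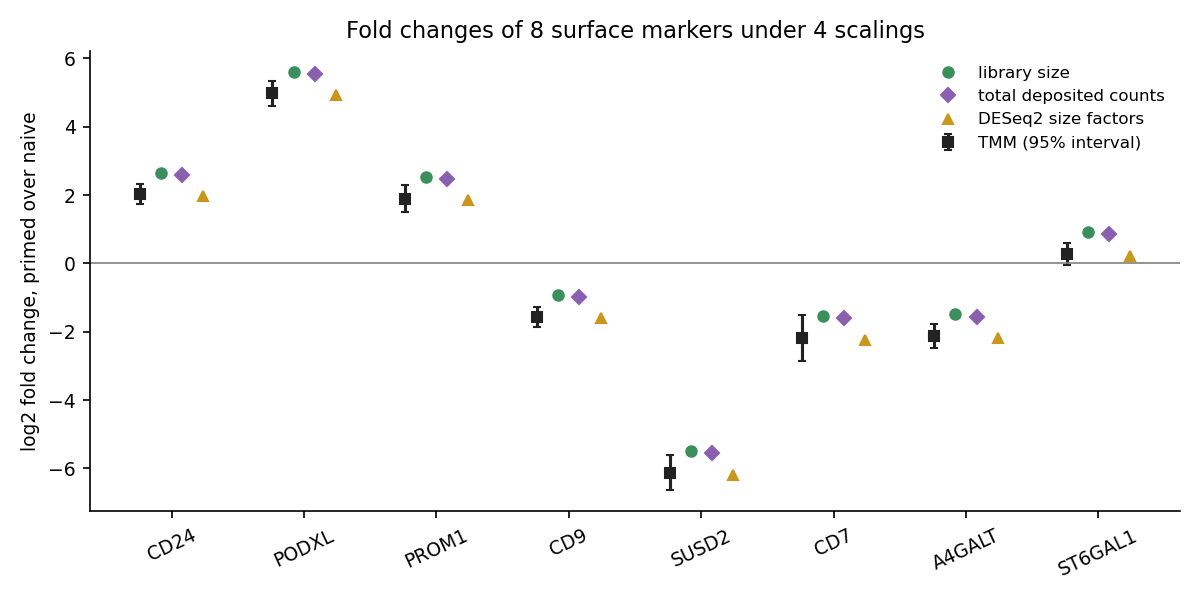
Log2 fold change of primed over naïve for 8 surface markers under TMM, with its 95% interval, and under library size, total deposited counts and DESeq2 size factors. THY1 and B3GAT1 are left out because a fold against 0 counts is only a bound, and ST6GAL1, at 0.28 under TMM and 0.92 with library size, is the marker whose call changed.

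Per kb of exonic length of the canonical transcript, the order of the levels changed between the states. In naïve hESCs, CD9 came first with 200.1 ± 10.4 CPM per kb (SD, n = 2), followed by CD24 with 64.9 ± 1.91, A4GALT with 9.81 ± 0.498, SUSD2 with 7.04 ± 0.895, ST6GAL1 with 3.93 ± 0.299 and CD7 with 1.96 ± 0.524. PROM1 and PODXL came next with 0.766 ± 0.0323 and 0.732 ± 0.0937, and the values of these neighbours overlapped. THY1 and B3GAT1 were listed at 0. In primed hESCs, CD24 came first with 263 ± 27.1 CPM per kb (SD, n = 2), followed by CD9 with 67.8 ± 2.13, PODXL with 23.1 ± 0.209 and THY1 with 14.5 ± 1.21. ST6GAL1 with 4.76 ± 0.290 kept its place in the order in both states. PROM1 with 2.85 ± 0.281, A4GALT with 2.24 ± 0.250, CD7 with 0.427 ± 0.00600, B3GAT1 with 0.218 ± 0.00627 and SUSD2 with 0.0997 ± 0.0103 followed, and no neighbours overlapped in the primed order. Since alignments were counted over introns too, a level per kb of exons is approximate for genes with long introns.

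The 10 genes have 118 annotated isoforms, of which 115 were tested for differential isoform usage, with the rest of the gene's isoforms as the reference. The isoform fraction of 14 of these, all of THY1 and B3GAT1, was undefined in naïve hESCs. To be called, an isoform had to reach an adjusted p under 0.05 and a difference of isoform fraction beyond 0.1, as did 0.556% of 159577 isoforms over all genes. An unadjusted p under 0.05 was found for 7 isoforms of the members, an adjusted one for 2, and 1 isoform was called, A4GALT-207. Of the 7, 5 were isoforms of ST6GAL1, some with spans that overlap and share alignments. The share over all isoforms was taken for the call only, so that the 7 and the 2 have no background here. Many isoforms cannot be separated by counts over whole spans, since spans of 1 gene lie inside each other. What such counts do give is the share of a gene's alignments that touch a nested stretch.

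A4GALT-207 is a short isoform of 2 exons next to the start of the gene (chromosome 22, 42718246 to 42720862), directly downstream of the promoter printed above. Its span held 239 of 457 and 292 of 543 alignments in naïve hESCs, or 52.3% and 53.8%. In primed hESCs it held 28 of 127 and 37 of 155, or 22.0% and 23.9%. The 95% Wilson intervals of the naïve shares ran from 47.7% to 56.8% and from 49.6% to 57.9%. Those of the primed shares ran from 15.7% to 30.0% and from 17.8% to 31.2%. These intervals cover counting error within a library only, and A4GALT-207 was picked by these same counts. The isoform fraction fell by 0.115, with an adjusted p of 0.00769 by edgeR. The call was lost without naïve replicate 1 (adjusted p = 0.179 by edgeR) and without naïve replicate 2 (adjusted p = 0.213), with differences of -0.119 and -0.11. It also ended when isoform fractions were not divided by length, since A4GALT-207 then differed by -0.0541.

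The counts over A4GALT fell by unequal amounts along the gene in primed hESCs. Alignments of CYB5R3, which spans it, cannot be told apart from those of A4GALT. Over the span of A4GALT-207 the level was 10.1-fold lower, 1.08 ± 0.181 against 10.9 ± 0.766 CPM (SD, n = 2). Over the span of A4GALT-201, at the other end of the gene (42692122 to 42695633), it was 5.69-fold lower, 1.64 ± 0.494 against 9.33 ± 0.936 CPM. For alignments that missed the A4GALT-207 span it was 2.67-fold lower. Since the spans of A4GALT-207 and A4GALT-201 do not touch, at least 61 of 127 and 57 of 155 primed alignments, or 48.0% and 36.8%, fell in neither and lay over the intron between them (42695634 to 42718245). At least 18 of 457 and 0 of 543 did so in naïve hESCs, or 3.94% of the first. An alignment that touches both spans lowers these bounds, so that they do not compare the states. Apart from A4GALT only CYB5R3 has a transcript over this intron. These shares were computed after the values of A4GALT-207 had been seen.

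**Figure D3:**
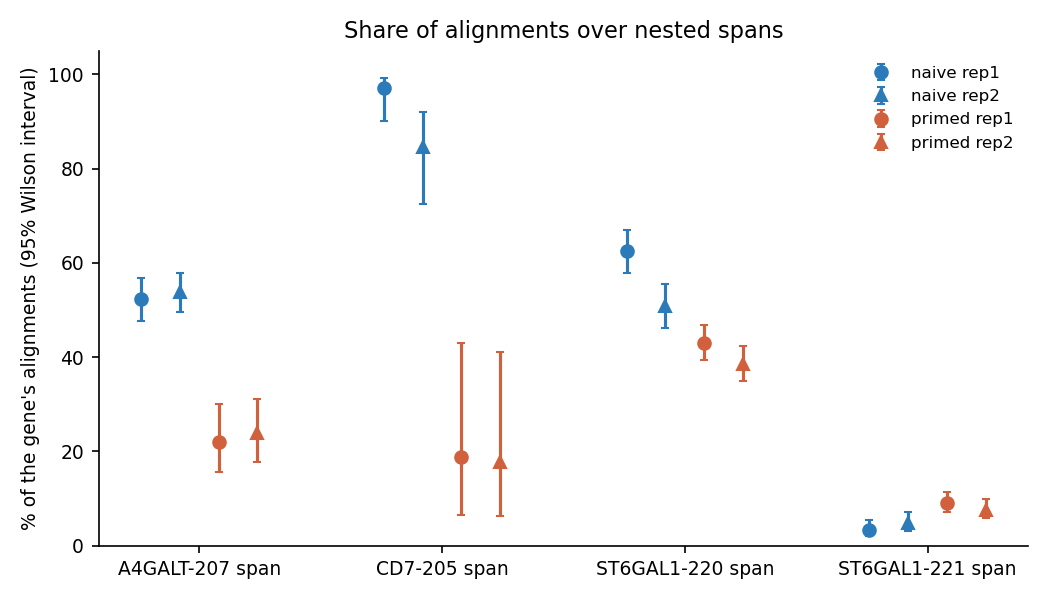
Share of a gene's alignments that touch the span of a nested isoform, in percent with 95% Wilson intervals, for each library. The A4GALT-207 and CD7-205 spans held larger shares in both naïve libraries, and ST6GAL1-221 held 3.41% and 4.81% in naïve against 9.06% and 7.62% in primed hESCs.

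CD7-205 (chromosome 17, 82316385 to 82317579) covers the first part of CD7. It held 67 of 69 and 44 of 52 alignments in naïve hESCs, or 97.1% and 84.6%, and 3 of 16 and 3 of 17 in primed hESCs, or 18.8% and 17.6%. The Wilson intervals were wide in primed hESCs, 6.59% to 43.0% and 6.19% to 41.0%. Those of the naïve libraries were 90.0% to 99.2% and 72.5% to 92.0%. All cover counting error only and do not measure the spread between libraries. The isoform fraction differed by -0.172 with an adjusted p of 0.0573 by edgeR, which missed the threshold. It passed with library size (adjusted p = 0.0293) and with the replicate number as a block (adjusted p = 0.0305), but not with identical isoforms collapsed (adjusted p = 0.12), without primed replicate 1 (adjusted p = 0.972) or without primed replicate 2 (adjusted p = 1.00). Without a naïve library it was not tested. The alignments of CD7 outside this span were 2 and 8 in naïve and 13 and 14 in primed hESCs, 0.20 ± 0.16 against 0.449 ± 0.0106 CPM (SD, n = 2). CD7-203, which reaches 165 bases further towards the end of the gene, held 67 and 44 naïve and 14 and 14 primed counts. CD7-203 and CD7-205 were thus equal in naïve hESCs and 14 against 3 in each primed library.

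ST6GAL1-221, an inner isoform of ST6GAL1 (chromosome 3, 186996622 to 187006551), held 15 of 440 and 21 of 437 alignments in naïve and 61 of 673 and 49 of 643 in primed hESCs. Its adjusted p was 0.00955 by edgeR, but the isoform fraction differed by only 0.0077, below the threshold. ST6GAL1-220, a retained intron isoform over the end of the gene (187071974 to 187078551), held 62.5% and 50.8% in naïve and 43.1% and 38.6% in primed hESCs, and its adjusted p was 0.961. Over this end the level of ST6GAL1 was 10.3 ± 2.27 CPM in naïve and 8.96 ± 1.25 CPM in primed hESCs (SD, n = 2), which differed by less than the spread between replicates. Outside it the level was 1.66-fold higher in primed hESCs, 12.9 ± 0.0908 against 7.78 ± 0.900 CPM. These spans were chosen after their values were seen, and the difference between the parts of ST6GAL1 was not called. In the other members with counts in both states, CD24, SUSD2, PODXL, CD9 and PROM1, the lowest adjusted p of any isoform was 1.00.

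The genes of the pathways around each marker were read from the same fit, in which 37.4% of all genes tested were higher and 32.6% lower in primed hESCs. Of the 27632 genes tested, library size gave 15524 higher and 4511 lower, and DESeq2 gave 8034 higher and 8178 lower. The counts of each list under each scaling have to be read against these. For the GPI anchor that holds THY1 and CD24, 12 of 26 synthesis genes were higher in primed hESCs and 5 were lower, with a median log2 fold change of 0.31. PIGM, the first mannosyltransferase of the anchor, was the most changed of these, with 6 and 6 against 195 and 172 counts, 24.7-fold higher (adjusted p = 7.88e-16 by edgeR). PIGV, the next mannosyltransferase, was 3.02-fold higher and PGAP1, which removes an acyl chain from the finished anchor, 2.25-fold higher. PIGA, of the enzyme that starts the anchor, was 4.01-fold lower, with 81 and 78 against 29 and 20 counts (adjusted p = 1.31e-07). The lean of this list towards higher levels depended on the scaling, with 19 higher and 2 lower by library size and 7 higher and 6 lower by DESeq2.

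Around CD9, 4 of 13 tetraspanins and partners were higher in primed hESCs and 5 were lower, with a median of 0.07. The tetraspanin CD81, the closest relative of CD9 in this list, was also lower, with 324 and 269 against 132 and 202 counts and a 2.22-fold lower level (adjusted p = 1.46e-06 by edgeR). CD82, another tetraspanin, was 2.37-fold higher. The integrin chains ITGA6 and ITGA3 were 3.82-fold and 2.99-fold higher in primed hESCs. The list had 8 higher and 3 lower by library size and 3 higher and 5 lower by DESeq2.

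A4GALT stands at a branch of glycosphingolipid synthesis, where lactosylceramide goes to globosides or to gangliosides. Of 16 genes of these paths, 7 were higher and 5 lower in primed hESCs, with a median of 0.54. UGCG, which makes the glucosylceramide that all of them start from, was lower like A4GALT, with 760 and 826 against 321 and 306 counts, 3.13-fold lower (adjusted p = 2.20e-12 by edgeR). B3GALT5, which extends globosides towards the primed antigens SSEA-3 and SSEA-4, had 0 and 3 counts in naïve and 627 and 607 in primed hESCs (adjusted p = 7.83e-24). B4GALT6, a lactosylceramide synthase, was 8.70-fold higher, and ST3GAL1, a sialyltransferase, was 7.17-fold lower. The list had 11 higher and 4 lower by library size and 5 higher and 5 lower by DESeq2.

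Among the 24 other sialylation genes around ST6GAL1, 14 were higher in primed hESCs, 7 were lower and the median was 0.74. The closest relative, ST6GAL2, had 5 and 12 against 68 and 66 counts (adjusted p = 5.12e-08 by edgeR), and was looked up after its values were seen. ST3GAL3 was 8.80-fold higher, with 20 and 20 against 207 and 230 counts, ST6GALNAC5 was 8.15-fold higher and ST6GALNAC3 4.44-fold higher. ST3GAL1 was the most changed in the other direction, with 298 and 399 against 50 and 70 counts (adjusted p = 5.90e-16). The list had 16 higher and 5 lower by library size and 13 higher and 6 lower by DESeq2.

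The HNK-1 list held 4 genes that were higher in primed hESCs like B3GAT1 and 2 that were lower, with a median of 2.74. CHST10, the sulfotransferase that completes the epitope, had 18 and 10 against 118 and 135 counts, 7.17-fold higher (adjusted p = 1.16e-10 by edgeR). The listed carriers of the epitope were higher as well. NCAM1 had 5 and 5 against 83 and 115 counts, L1CAM 12 and 12 against 84 and 102, and CNTN1 0 and 5 against 306 and 361. Like B3GAT1, NCAM1 and CNTN1 reached 10 counts in primed libraries only, and could be tested only because they were high there. The B3GAT1 relatives B3GAT2 and B3GAT3 were lower by 0.46 and 0.57 on the log2 scale under TMM (adjusted p = 0.0172 and 0.00566 by edgeR), and both turned slightly higher with library size, 0.17 and 0.07. The lists of HNK-1 genes and of other surface antigens share NCAM1 and L1CAM.

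Around PODXL, 5 of 20 tested genes of its glycans, family and partners were higher in primed hESCs and 9 were lower, with a median of -0.41. EZR, which links podocalyxin to actin, was 4.60-fold lower, with 6575 and 6821 against 1956 and 1646 counts (adjusted p = 5.73e-17 by edgeR). B4GALT1 and GCNT1, which build N-acetyllactosamine and branch O-glycans, were 4.77-fold and 4.37-fold lower. B3GALT5, given above, was the most changed of the list. With library size the list had 8 higher and 6 lower. Of the relatives of PODXL, PODXL2 had 21 and 39 against 106 and 108 counts and CD34 had 0 and 0 against 10 and 12, both chosen after their values were seen.

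A further 27 surface antigens gave 10 higher and 13 lower in primed hESCs, with a median of 0.02, and 13 higher and 6 lower with library size. CD47, the signal against phagocytosis, was 9.70-fold lower, with 862 and 1338 against 145 and 133 counts (adjusted p = 4.01e-20 by edgeR). CD55, a GPI-anchored complement regulator, was 7.57-fold lower, with 929 and 1231 against 179 and 172 counts (adjusted p = 2.03e-19). The receptor KIT was 13.6-fold higher, with 9 and 10 against 165 and 154 counts, and the adhesion molecule NCAM1 15.9-fold higher.

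**Figure D4:**
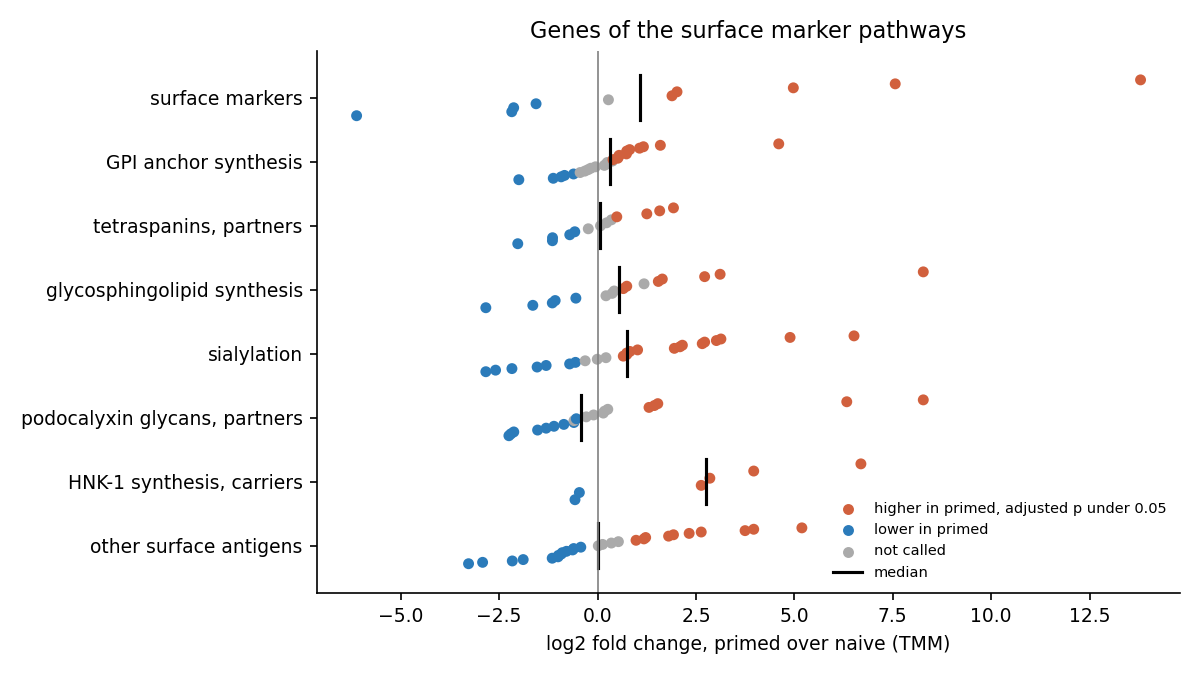
Log2 fold change of primed over naïve (TMM) for each tested gene of the surface markers and of 7 lists around them, coloured by the edgeR call, with a bar at the median. Genes without a count in naïve hESCs, such as THY1, are drawn at their fitted value, which is no bound. The medians lie between -0.41 for the podocalyxin list and 2.74 for the HNK-1 list.

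THY1 and SUSD2 were the members with the most opposed patterns, and the genes nearest to each over the 4 libraries were found by the distance of log2(CPM + 0.5). Nearest to THY1 were THY1-AS1 at 0.169, SFRP2 at 0.459, with 0 and 0 against 1526 and 1645 counts, and JAKMIP2-AS1 at 0.622, with 1 and 4 against 1472 and 1930. THY1-AS1 lies inside THY1 and shares its alignments. Nearest to SUSD2 were NECTIN4 at 0.293, with 495 and 593 against 8 and 8 counts, the histone gene H1-1 at 0.315, with 460 and 529 against 11 and 7, and FRG1CP at 0.347, with 471 and 583 against 9 and 12.

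Several members are also markers of other cell types. THY1 marks fibroblasts, CD24 and the HNK-1 epitope mark neural cells, and CD7 marks T cells. Of 7 fibroblast markers 5 were tested, 4 were higher in primed hESCs and none was lower, and their summed level was 4.38 and 3.64 CPM in naïve against 61.6 and 63.5 CPM in primed hESCs. COL1A1 and COL1A2 accounted for most of the primed sum, with mean primed levels of 35.2 and 21.8 CPM. COL1A1 had 36 and 30 against 948 and 1174 counts, whereas the defining marker DCN had 1 and 0 against 0 and 1. COL3A1, with 35 and 18 against 37 and 43 counts, was not called under TMM. Of 6 neural markers 5 were tested and 4 were higher, with 1.99 and 1.76 against 9.57 and 8.99 CPM in sum and SOX1 at 0 counts in 3 libraries and 1 in the other one. Of 7 lymphoid markers 2 were tested, LCK and SPN, and both were higher in primed hESCs, opposite to CD7, with 3.29 and 3.06 against 14.5 and 11.9 CPM in sum. PAX6, MAP2, DCX, STMN2, SPN and THBS2 reached 10 counts in primed libraries only. They could thus be tested only because they were high there. Over all genes tested 37.4% were higher under TMM. By DESeq2, 3 of 5 fibroblast and 3 of 5 neural markers tested were higher. Of 6 trophoblast markers 5 were lower in primed hESCs, with 1643 and 1971 CPM in sum in naïve against 8.62 and 6.16 in primed hESCs. CGA accounted for most of this sum, with 35747 and 47550 naïve against 0 and 1 primed counts, and GATA3 had 976 and 1151 against 15 and 16. CGA, GATA2 and VGLL1 reached 10 counts in naïve libraries only, and could be tested only because they were high in naïve hESCs. KRT7 went the other way, with 42 and 74 against 103 and 81 counts, and was not called under TMM. With library size 1 of the 6 trophoblast markers was higher and 4 were lower. The part of these cell types in the levels of the surface markers was not tested.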

How the data were processed

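For each library, the authors aligned Nanopore cDNA reads to GRCh38 with minimap2 and deposited raw counts per transcript of the Ensembl annotation from featureCounts 2.0.0, per the file headers and labels. Counts cover whole transcript spans, introns included, strand ignored. An alignment counted for every transcript it overlapped (-O) and at each place a read aligned (-M). Symbols came from GENCODE release 44, which held the identifiers of 242542 of 244825 transcripts.

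Each gene took the count of its transcript with the largest mean count. Genes that reached 10 counts in 2 or more libraries were tested with edgeR 4.0.16 in R 4.3.3 (TMM, quasi-likelihood test, two-sided, Benjamini-Hochberg adjustment over all genes), and isoforms with diffSpliceDGE. Isoform fractions are counts per exonic length, over the tested isoforms of a gene. Since the labels name no separate cultures, p-values measure the spread between these libraries, which may be technical. Reads carry no molecular identifiers, and the Wilson intervals of shares cover counting error only. The intervals of log2 fold changes came from the edgeR fit and include the spread between these libraries.

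Members and lists were chosen with earlier results of these data known. Named from each list are up to 4 called genes with the largest change and a mean count of at least 50, and further genes are named as chosen after their values were seen, among them DNMT3L, ZIC2, KLF17, COL1A1, CGA, GATA3 and the markers near 0 counts. Alternatives were library size, total deposited counts, DESeq2 1.42.0, the replicate number as a block, other count filters, gene counts summed over isoforms or of the canonical isoform, other isoform fractions and thresholds, and each library left out.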

Additional observations from a re-analysis of the deposited data

How the results depend on the processing

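Of 115 values of the 10 log2 fold changes under 12 alternatives, 111 kept their direction and their side of the threshold, and the other 4 were the calls of ST6GAL1 given above. The log2 fold change of ST6GAL1 ranged from 0.07 to 0.92 and was positive in each. The number of members called was 9 by TMM and 10 with library size or total deposited counts. Without 1 library it ranged from 7 to 9, and the number of genes called from 13609 to 16839. B3GAT1 was not tested with the filter of 50 counts or without a primed library, nor was THY1 without a primed library, because fewer than 2 libraries then passed the filter. Of the member isoforms, 1 was called for usage, but 2 with library size, 2 with the replicate block and 2 without a threshold on the isoform fraction, and 0 with a threshold of 0.2 or with fractions not divided by length, where A4GALT-207 was no longer called. Without 1 library the number was 0 to 1, in fits where the lone library of a state was assumed to vary like the other state. With library size and with the block the isoform added was CD7-205. The replicate numbers do not pair the libraries by the labels, and the differences between replicates correlated by 0.0409 across 27632 genes. The replicate block gave 19688 genes called against 19334 and the same 9 members called. Low counts, such as 10 and 9 for SUSD2 in primed hESCs or 3 and 3 for CD7-205 there, are limited by depth.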
